A study of Saccharomyces cerevisiae with 39 samples.

Results

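Newly made RNA of budding yeast was compared between 90 min and 50 min of nuclear depletion of Abf1. The 90 min time ends a course of 10 times with rapamycin. The comparison takes the 6 libraries named Abf1 90 min and Abf1 50 min, 3 replicates each, of the 39 libraries and 13 groups in the series. Both groups, and the Abf1 0 min group, carry BY4742 tor1-1; fpr1del; RPL13A-FKBP12-NAT with Abf1-FRB-yEGFP-3V5-hphMX4 and are MATalpha; the untagged WT strain has the same first 3 alleles and no tag on Abf1. The cells were given rapamycin at 7.5 µM for 90 or 50 min, and the 0 min groups had solvent alone for 90 min. RNA was labelled with 5 mM 4-thiouracil over the last 6 min before harvest, pulled out of total RNA and sequenced, so a value is the share of RNA made in that window and not the amount present in the cell. No spike-in was used, so every value is relative to the labelled RNA of its own library, and a change in overall synthesis would not be seen.

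Abf1 is an essential general regulatory factor, a DNA-binding protein that sits in many yeast promoters, keeps nucleosomes off the neighbouring DNA and helps to start transcription. In the anchor-away method, rapamycin bridges the FRB domain on the factor to FKBP12 on a ribosomal protein, and the factor leaves the nucleus with the new ribosomal subunits. Genes that need Abf1 lose output soon after it leaves. The tor1-1 allele and the loss of FPR1 make the strains insensitive to rapamycin itself. The anchor acts in all cells of a culture, the carrier is a ribosomal protein, and the number of independent clones behind the tagged strain was not given in the sources used here.

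The 90 min libraries held 3917566, 4896585 and 3500982 counts and the 50 min libraries 6509811, 4707932 and 4975312. FPR1, LEU2, LYS2 and URA3 had 0 counts in every library, while HIS3, another marker gene mutated in BY4742, had 77 to 174 counts in the 6. The alpha-specific genes STE3, SAG1, MF(ALPHA)1 and MF(ALPHA)2 were present in all 6, whereas the a-specific gene STE2 had 22 to 54 counts and AGA2 at most 1. MATALPHA1, another alpha gene of the check, was near the floor at 2 to 14 counts. ABF1 itself was made at 987, 729 and 939 CPM (each library's counts as parts per 1e+06 of its scaled total) at 90 min, against 806, 896 and 860 CPM at 50 min, and the groups overlapped (log2 fold change 0.05, edgeR adjusted p = 0.882). TOR1 lay between 919 and 1121 CPM in the 6 libraries. The library Abf1 50 min replicate 2 stood apart. It gave 0.398% of its counts to the 138 cytosolic ribosomal protein genes, the lowest share of the 39 libraries, and it was also the lowest of the 6 for small nuclear and nucleolar RNAs. Replicate 2 was low in that ribosomal protein share at 30, 40 and 60 min too (0.597%, 0.584% and 0.565%). Replicates 1 and 3 had 0.699% to 0.984% at those times. Values without Abf1 50 min replicate 2 are given beside the genes and lists whose call or size depends on it.

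Between 90 and 50 min, 37 of the 5722 features tested were called higher (0.647%) and 20 were called lower (0.35%), where a call needs an edgeR adjusted p under 0.01 and a fold change over 1.5. Samples that share a replicate number deviated together, and with the replicate number as a block the counts were 98 higher (1.71%) and 52 lower (0.909%), which held 36 of the 37 and all 20. Without Abf1 50 min replicate 2 the higher calls numbered 11, of which 7 were among the 37, and the lower calls numbered 14, of which 13 were among the 20. There were 163 higher and 59 lower calls without Abf1 50 min replicate 1, with 34 of the 37 and 19 of the 20 among them, and without Abf1 50 min replicate 3 there were 19 and 14, with 15 and 13 among them. Leaving out a 90 min library gave 30 higher and 28 lower calls without replicate 1, 24 and 30 without replicate 2, and 16 and 18 without replicate 3, which held 15 to 23 of the 37 and 12 to 15 of the 20. In each of the 6 fits that left out 1 library, 4 genes kept the call higher, namely NCA3, MGM1, CWP2 and SER3. In the same fits 9 genes kept the call lower, namely INA1, ITR1, FAA1, FAA4, PSD1, RPI1, HMS2, STI1 and SUN4. The replicates of the groups did not overlap for 516 features that were higher (9.02%) and 423 that were lower (7.39%).

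**Figure D1:**
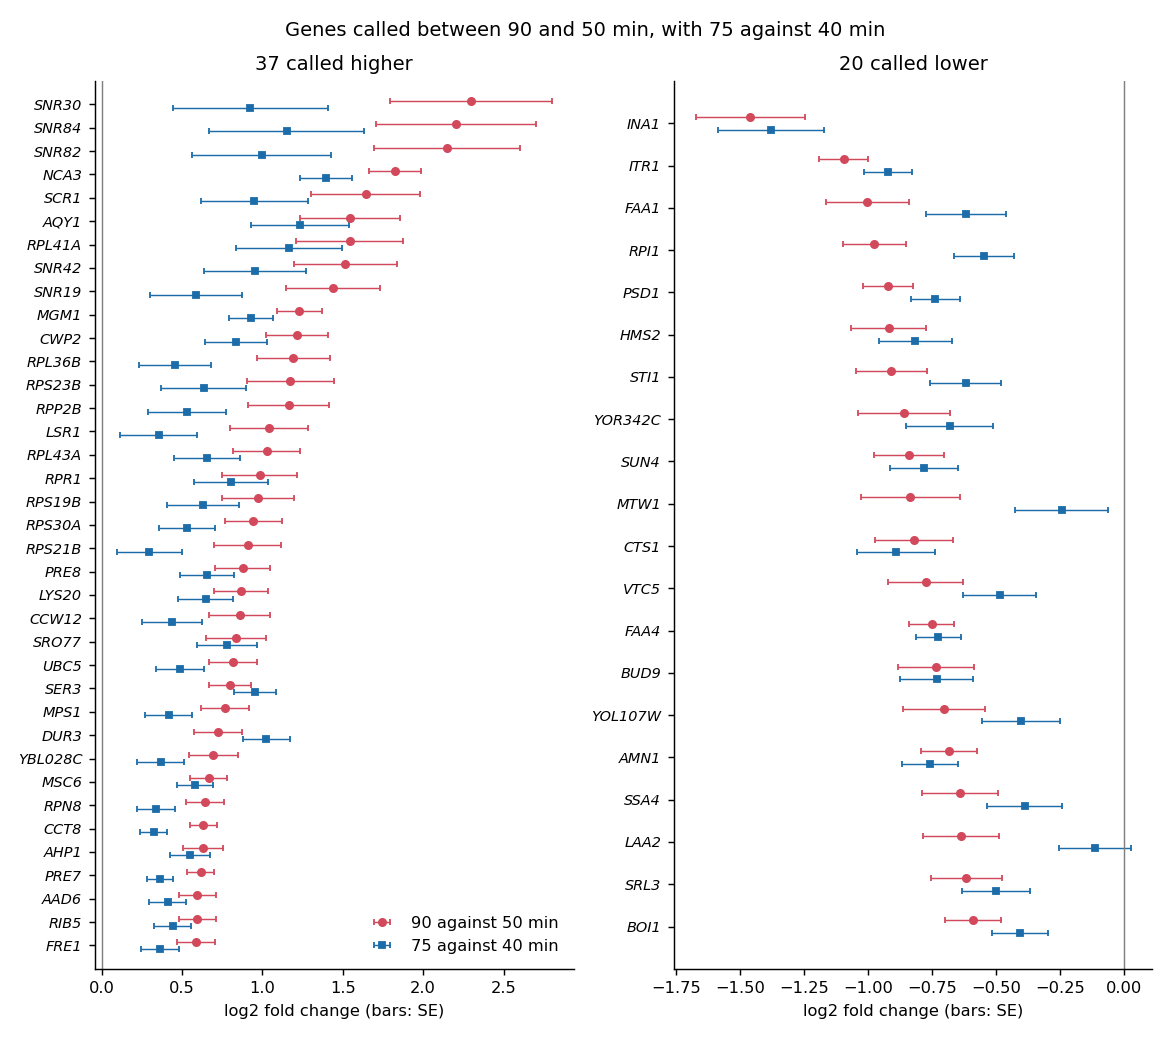
Log2 fold change (bars, SE from the edgeR fit) of the 37 genes called higher and the 20 called lower at 90 against 50 min (circles), with 75 against 40 min in other libraries (squares). All 57 genes lay on the same side of 0 in both comparisons.

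The genes whose output fell early were taken as those called lower at both 20 and 30 min against 0 min, a choice made from libraries other than the 6 compared. There were 484 of them (8.46% of the features tested), called early fallen here, and they answer whether output lost early came back. Binding of Abf1 was not required, whereas the study also asked for an Abf1 peak in the promoter. Direct and indirect falls were thus not separated. An Abf1 core, here TCA and ACG with any 6 bases between them on either strand, was found within 300 bases before the start codon of 338 of the 477 early fallen protein-coding genes with a window (70.9%), against 877 of all 5603 tested (15.7%). The cores lay a median of 151 bases before the start codon.

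Of the early fallen genes, 6 were called higher at 90 than at 50 min (1.24%) and 0 were called lower, beside 0.647% and 0.35% of all features. At an unadjusted p under 0.05 in edgeR 81 were higher (16.7%) and 29 lower (5.99%), beside 11.1% and 9.51% of all features. DESeq2 called 10 of the 484 higher and 0 lower, beside 95 higher and 34 lower of all 5722 features. MGM1 encodes the dynamin-like GTPase of mitochondrial inner membrane fusion, PRE8 a subunit of the proteasome core, RPN8 a subunit of the proteasome lid, MPS1 a kinase of spindle pole duplication and the spindle checkpoint, and CCT8 a subunit of the cytosolic chaperonin. MSC6 encodes a mitochondrial protein. Of the 6 genes, 5 have an Abf1 core in the 300 bases, and the windows below show it in capitals in 60 bases of the strand that reads toward the gene (R64 genome from RefSeq, the sacCer3 build). They are shown because these are the promoters whose output was lost with Abf1 and then rose.
MGM1, chrXV:741832-741891: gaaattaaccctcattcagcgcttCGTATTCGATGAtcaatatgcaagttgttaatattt
MPS1, chrIV:403527-403586: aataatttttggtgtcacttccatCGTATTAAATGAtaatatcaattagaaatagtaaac
MSC6, chrXV:1003325-1003384: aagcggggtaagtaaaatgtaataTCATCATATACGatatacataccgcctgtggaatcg
CCT8, chrX:421775-421834: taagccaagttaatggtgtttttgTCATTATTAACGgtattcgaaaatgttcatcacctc
RPN8, chrXV:817113-817172: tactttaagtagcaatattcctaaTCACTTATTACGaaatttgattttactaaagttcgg
RPN8, chrXV:817052-817111: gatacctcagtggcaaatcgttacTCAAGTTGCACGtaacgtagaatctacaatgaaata

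All 5 genes lie on the minus strand. In MGM1 and MPS1 the core is read on the other strand, so the capitals are its reverse complement, CGT and TGA with 6 bases between. RPN8 has 2 cores, 205 and 144 bases before its start codon. PRE8 has none in the window, but it holds the proteasome element GGTGGCAAA, which the activator Rpn4 binds, and so does PRE7, which was called higher without being early fallen.
PRE8, chrXIII:86841-86869: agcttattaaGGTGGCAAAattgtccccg
PRE7, chrII:141150-141178: aaactcaaagGGTGGCAAAaacaagcggt

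In these 2 windows the capitals mark the element and the gene's own strand is shown. It occurs before 27 of the 33 proteasome genes (81.8%) and 72 of all 5603 (1.29%). The letters describe the promoters, and binding at them was not measured in these libraries.

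MGM1 (YOR211C, chromosome XV, 738924 to 741569) had the largest rise of the early fallen genes that were called. It was at 56.8, 56.6 and 70.6 CPM at 90 min, against 22.4, 26.0 and 30.1 CPM at 50 min (log2 fold change 1.23, SE 0.14, edgeR adjusted p = 1.04e-06). The 90 min libraries were all above the 50 min libraries, and the fits without 1 library gave 1.11 to 1.33. Its mean (± SD of 3 libraries) was 167 ± 12.9 CPM with solvent and, after 20, 50, 75 and 90 min of rapamycin, 21.7 ± 2.78, 26.2 ± 3.85, 46.6 ± 4.72 and 61.3 ± 8.01 CPM. It thus regained 24.9% of the distance between its 50 and 0 min means.

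PRE8 (YML092C) was at 62.5, 90.8 and 87.3 CPM at 90 min, against 46.3, 38.0 and 46.4 CPM at 50 min (log2 fold change 0.88, SE 0.17, edgeR adjusted p = 0.00178). It regained 37.8%, the largest share of the 6. MPS1 (YDL028C) was at 48.4, 68.1 and 42.3 CPM at 90 min, against 27.3, 40.2 and 26.8 CPM at 50 min (0.76, SE 0.15, edgeR adjusted p = 0.00179). Replicate 2 of MPS1 was the highest in both groups, and the lowest 90 min library was only just above it.

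MSC6 (YOR354C) was at 52.9, 50.3 and 56.4 CPM at 90 min, against 35.8, 26.4 and 37.9 CPM at 50 min (0.66, SE 0.12, edgeR adjusted p = 0.000765). RPN8 (YOR261C) was at 59.3, 63.7 and 55.3 CPM at 90 min, against 43.6, 32.2 and 38.1 CPM at 50 min (0.64, SE 0.12, edgeR adjusted p = 0.00126). CCT8 (YJL008C) was at 157, 149 and 149 CPM at 90 min, against 101, 88.2 and 103 CPM at 50 min (0.63, SE 0.09, edgeR adjusted p = 2.41e-05). In each the groups were apart, and the regained share was 13.7% for MSC6, 13.9% for RPN8 and 19.7% for CCT8. Without Abf1 50 min replicate 2, PRE8 (adjusted p = 0.021), MSC6 (0.018) and RPN8 (0.021) lost the call in edgeR and CCT8 went below the fold (log2 fold change 0.56), while MGM1 and MPS1 kept it. MPS1 lost the call without Abf1 50 min replicate 3 (edgeR adjusted p = 0.0196) and without Abf1 90 min replicate 2 (0.0265, log2 fold change 0.53). Of the 6 fits that left out 1 library, PRE8 kept the call in 3 and RPN8 and MPS1 in 4. MSC6 and CCT8 kept it in 5 and MGM1 in 6.

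**Figure D2:**
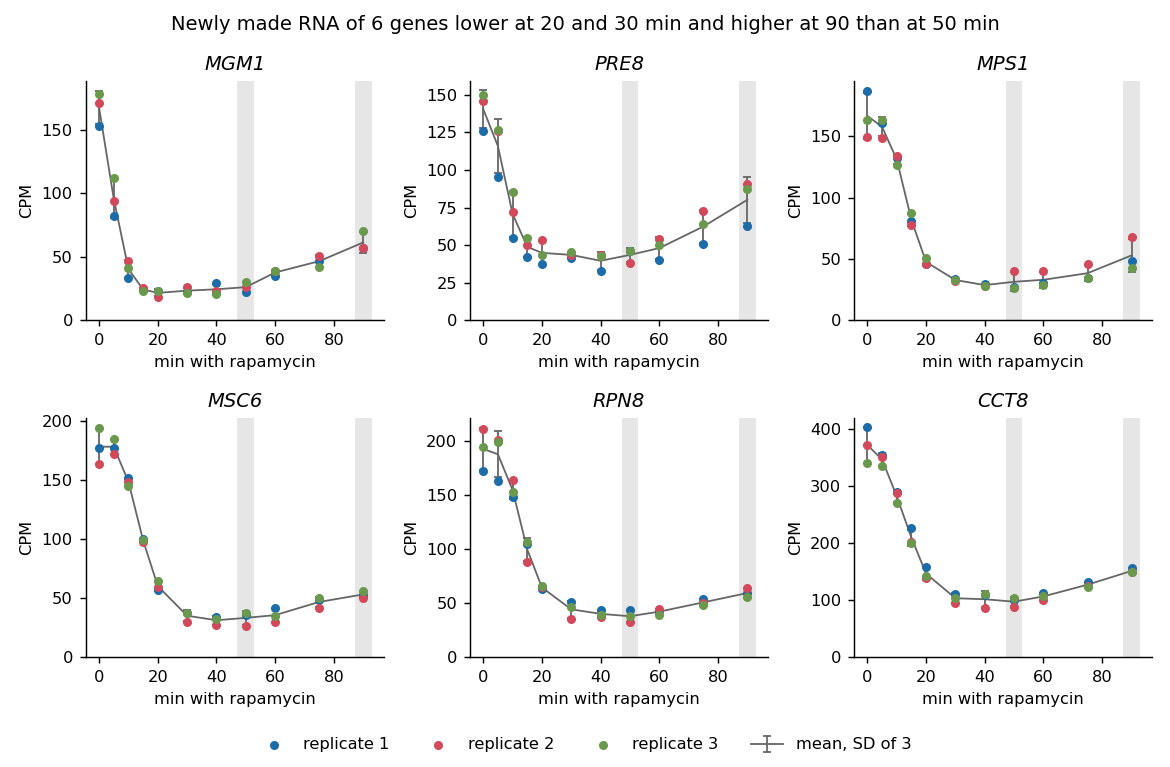
Newly made RNA in CPM of the 6 early fallen genes called higher at 90 against 50 min, by min with rapamycin (0 is solvent only). Points are libraries coloured by replicate number, the line joins means with SD of 3, and the grey bands mark 50 and 90 min. Each gene is low at 20 and 30 min and has a higher mean at 90 than at 50 min, below its mean at 0 min.

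As a group the early fallen genes shifted little. Their median log2 fold change at 90 against 50 min was 0.08, beside 0.00 over all features, and 306 of the 484 were above 0. The median share of the early loss regained was 2.45% (quartiles -1.91% and 9.20%), 48 genes regained over 20%, 3 over 50%, and 0 had a mean at 90 min above that at 0 min. Their summed output was 37228, 33681 and 36242 CPM at 90 min, against 33056, 34502 and 34427 CPM at 50 min, so replicate 2 was lower at 90 min and the groups overlapped. At 0 min the same sum averaged 87986 ± 2260 CPM (SD, n = 3). Against 0 min, 448 of the 484 were called lower at 90 min (11.3% of all features) and 472 at 50 min (10.6%). Both comparisons share the 0 min libraries with the choice of the list. The median was 0.08 in the 338 genes with an Abf1 core and 0.08 in the 139 without.

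With the replicate block 8 early fallen genes were called higher (1.65%) and 0 lower, beside 1.71% and 0.909% of all features. The share called higher was thus no larger than that of all features. The additional genes were SEC53, a phosphomannomutase of protein glycosylation, and MPO1, a dioxygenase of fatty acid breakdown. These 2 and the following 2 genes were chosen after their values were seen. UBA1, the ubiquitin-activating enzyme, regained the largest share of all, 76.0%, and was at 669, 637 and 722 CPM at 90 min, against 474, 424 and 544 CPM at 50 min. Its log2 fold change of 0.49 (edgeR adjusted p = 0.000629) was below the fold minimum. IOC2, a subunit of a chromatin remodeller, went the other way at 163, 136 and 119 CPM at 90 min, against 168, 233 and 195 CPM at 50 min (-0.51, edgeR adjusted p = 0.00542), also below the minimum. The 28 genes called higher at both 20 and 30 min (0.489% of the features tested) had 0 calls in edgeR in either direction between 90 and 50 min and a median of 0.06. At an unadjusted p under 0.05, 6 were higher (21.4%) and 4 lower (14.3%), beside 11.1% and 9.51% of all features, and DESeq2 also called 0.

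OCA5, SRB2 and NCP1, whose promoters the study names, were read as well, together with SSE2 and VIR1, and none of the 5 was called in edgeR. OCA5 was at 45.2, 25.4 and 35.4 CPM at 90 min, against 53.3, 42.7 and 47.0 CPM at 50 min (-0.44, edgeR adjusted p = 0.203). The groups of OCA5 overlapped, while each 90 min library was below the 50 min library of its replicate number (log2 ratios -0.23, -0.73 and -0.40). SSE2, an Hsp110 chaperone with a close paralog, was at 144, 135 and 108 CPM at 90 min, against 66.8, 85.6 and 55.5 CPM at 50 min (0.90, edgeR adjusted p = 0.0661). Its groups did not overlap, and it regained 9.53% of its loss. VIR1, one of the 28 early risen genes, was at 3805, 4414 and 3935 CPM at 90 min, against 4884, 6518 and 4981 CPM at 50 min (-0.43, edgeR adjusted p = 0.0227). The neighbours SRB2 and NCP1 had log2 fold changes of 0.36 (edgeR adjusted p = 0.34) and -0.12 (edgeR adjusted p = 0.522), with overlapping libraries in both. The edgeR fit with the replicate block gave adjusted p of 0.0192 for OCA5, 0.0268 for SSE2 and 0.0115 for VIR1. It gave 0.261 for SRB2 and 0.394 for NCP1, and none passed the call there either.

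The list of small nuclear and nucleolar RNAs, which are not translated, held the 3 largest rises among the called genes. SNR30, which is needed to process the small ribosomal RNA, was at 227, 135 and 244 CPM at 90 min, against 44.7, 33.3 and 44.7 CPM at 50 min (log2 fold change 2.30, SE 0.50, edgeR adjusted p = 0.00542). Behind these stood 923, 644 and 846 counts at 90 min, against 299, 150 and 217 at 50 min. SNR84, SNR82 and SNR42, which guide pseudouridylation, had log2 fold changes of 2.20, 2.15 and 1.52. SNR19, the U1 RNA of the spliceosome, was at 274, 173 and 267 CPM at 90 min, against 101, 64.0 and 97.5 CPM at 50 min (1.44, edgeR adjusted p = 0.00286). Outside the list, 3 further RNAs were called higher, namely SCR1, the RNA of the signal recognition particle (1.64), LSR1, the U2 RNA (1.04), and RPR1, the RNA of ribonuclease P (0.98). None of these 3 was called without Abf1 50 min replicate 2, at 1.52, 1.05 and 0.81 (edgeR adjusted p = 0.033, 0.044 and 0.091).

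Of the 75 small nuclear and nucleolar RNAs tested, 5 were called higher and 0 lower, beside 0.647% and 0.35% of all features. The median log2 fold change was 0.59. With the replicate block 10 were called higher, beside 1.71% of all features. Without Abf1 50 min replicate 2 none was called in edgeR and the median was 0.32, with SNR30 at 2.16 (edgeR adjusted p = 0.046), and at an unadjusted p under 0.05 there were 20 higher (26.7%) and 2 lower (2.67%), beside 7.46% and 6.27% of all features in that fit. With the block in that setting 1 was called. None was called in edgeR without Abf1 50 min replicate 3, Abf1 90 min replicate 1 or Abf1 90 min replicate 3 (medians 0.57, 0.44 and 0.63), and 15 were called without Abf1 50 min replicate 1 (median 1.07). With all 6 libraries DESeq2 called 12. Their summed output was 3143, 2350 and 3062 CPM at 90 min, against 1609, 806 and 1098 CPM at 50 min, so the groups were apart. That sum had a mean of 1171 CPM after 50 min (SD 406) against 1628 CPM with solvent (SD 161), 3 libraries each.

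Cytosolic ribosomal protein genes, which encode the proteins of the ribosome and are usually made in step, lay above 0 nearly throughout. Of the 138, 137 had a log2 fold change above 0, beside 50.7% of all features, and the median was 0.76. In 68 the groups did not overlap with 90 min higher, beside 9.02% of all features. Only 8 passed the call in the fit without the block (RPL41A, RPL36B, RPS23B, RPP2B, RPL43A, RPS19B, RPS30A and RPS21B) and 0 were lower. The shares of all features were 0.647% and 0.35%. With the block 52 passed, beside 1.71% of all features. Summed over the 138 genes, output was 12860, 10425 and 13924 CPM at 90 min, against 10183, 4167 and 7743 CPM at 50 min. The lowest 90 min library was just above the highest at 50 min, and the gap was widest in replicate 2. Without Abf1 50 min replicate 2 none of the 138 was called in edgeR without the block and 2 with it, 68 were higher (49.3%) and 0 lower at an unadjusted p under 0.05, beside 7.46% and 6.27% of all features in that fit, and the median was 0.46. There were 85 calls without Abf1 50 min replicate 1, without replicate 3 at 50 min or at 90 min 1 each, and without Abf1 90 min replicate 1 or 2 there were 3 and 6. With all 6 libraries DESeq2 called 46.

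RPL36B was at 72.0, 70.6 and 81.8 CPM at 90 min, against 45.7, 19.1 and 32.4 CPM at 50 min (log2 fold change 1.19, SE 0.23, edgeR adjusted p = 0.00158). RPS30A was at 132, 122 and 154 CPM at 90 min, against 93.9, 46.2 and 70.5 CPM at 50 min (0.94, SE 0.18, edgeR adjusted p = 0.00135). RPL43A (1.03), RPP2B (1.16) and RPL41A (1.54) had the same form, with replicate 2 the lowest at 50 min. Most of these genes have a near-identical copy, so their single values are less certain than the sum. The summed mean (± SD of 3 libraries) was 10749 ± 1703 CPM with solvent and, after 20, 50, 75 and 90 min of rapamycin, 9869 ± 426, 7365 ± 3026, 9793 ± 465 and 12403 ± 1793 CPM. The median log2 fold change against 0 min was 0.23 at 90 min and -0.56 at 50 min, with the 0 min libraries shared, and it was 0.21 in WT with rapamycin.

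**Figure D3:**
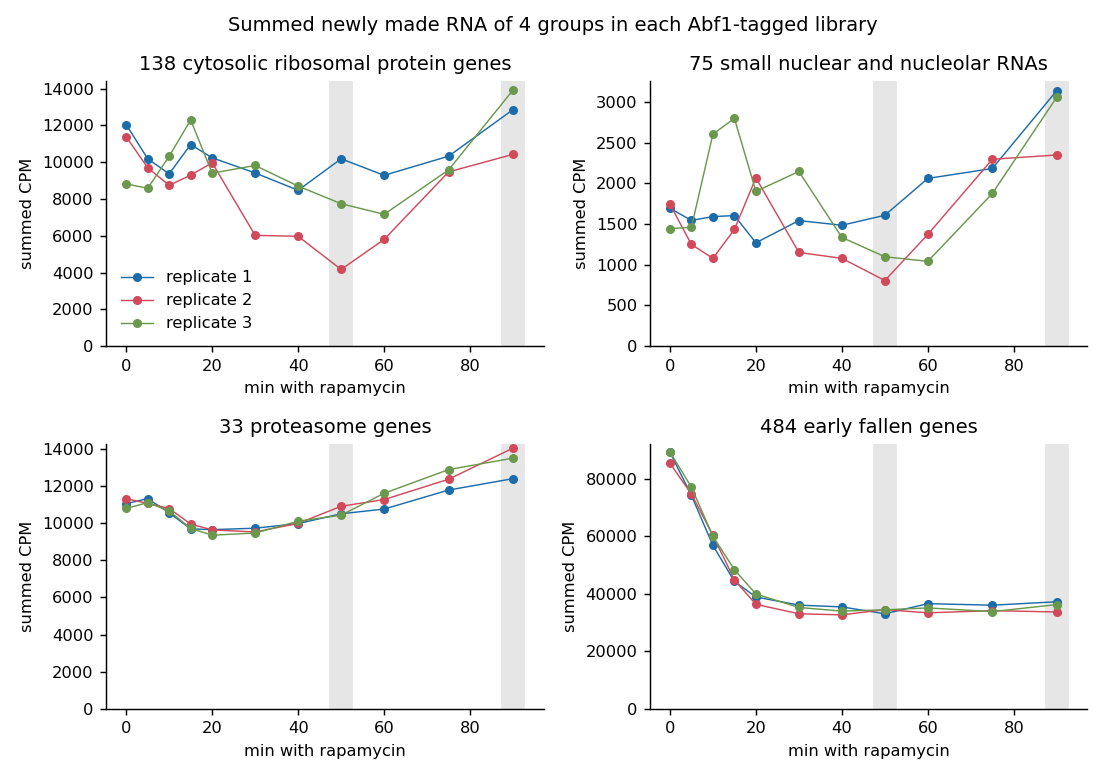
Summed CPM of 4 gene groups in every Abf1-tagged library by min with rapamycin (0 is solvent only), coloured by replicate number, with 50 and 90 min in grey. Ribosomal protein and small RNA sums are lowest in replicate 2 at 50 min and higher in all 3 replicates at 90 min. Proteasome sums are below 0 min at 20 min and climb together from 30 min on. The early fallen sum differs little between 90 and 50 min.

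The proteasome, which degrades ubiquitin-tagged proteins, moved evenly. All 33 genes had a log2 fold change above 0 (median 0.45), and 31 had 90 min libraries all above the 50 min libraries, against 9.02% of all features. PRE7, PRE8 and RPN8 were called higher and none lower, with and without the block (0.647% and 0.35% of all features without it). PRE7, a core subunit, was at 148, 171 and 170 CPM at 90 min, against 123, 89.6 and 106 CPM at 50 min (log2 fold change 0.61, SE 0.08, edgeR adjusted p = 2.41e-05). Summed over the group, output was 12401, 14047 and 13506 CPM at 90 min, against 10508, 10912 and 10434 CPM at 50 min. The mean sum (± SD of 3 libraries) was 11055 ± 263 CPM with solvent, 9548 ± 169 CPM after 20 min and 10618 ± 257 CPM after 50 min. The replicates at 50 min were close to each other, and without Abf1 50 min replicate 2 the median was 0.37 with 1 gene called in edgeR. PRE7 went below the fold minimum there (log2 fold change 0.50, edgeR adjusted p = 0.000645). There was also 1 call without Abf1 90 min replicate 2 or 3, and 7 without Abf1 50 min replicate 1, 6 without Abf1 90 min replicate 1 and 4 without Abf1 50 min replicate 3. RPN4, the activator of these genes, was at 2042, 2485 and 1956 CPM at 90 min, against 1824, 2335 and 1749 CPM at 50 min (0.13, edgeR adjusted p = 0.522).

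NCA3, a SUN family gene, had the smallest p of the rises. It was at 181, 143 and 130 CPM at 90 min, against 42.7, 42.4 and 42.9 CPM at 50 min (log2 fold change 1.82, SE 0.16, edgeR adjusted p = 6.14e-09). Its level with solvent was 20.6 ± 2.48 CPM (SD, n = 3). The cell wall mannoproteins CWP2 and CCW12 rose with log2 fold changes of 1.21 and 0.86 (edgeR adjusted p = 0.000268 and 0.00515), and CWP2 was at 476, 399 and 561 CPM at 90 min, against 261, 134 and 222 CPM at 50 min. AQY1, a water channel of spores, was low, at 10.1, 14.7 and 15.6 CPM at 90 min, against 3.29, 4.45 and 6.18 CPM at 50 min (1.55, edgeR adjusted p = 0.00246). CWP2 kept the call without Abf1 50 min replicate 2, whereas CCW12 (log2 fold change 0.58, edgeR adjusted p = 0.054) and AQY1 (1.52, edgeR adjusted p = 0.018) lost it.

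Single genes of metabolism were called higher as well. LYS20, a homocitrate synthase of lysine synthesis, was at 901, 1227 and 1057 CPM at 90 min, against 580, 521 and 647 CPM at 50 min (log2 fold change 0.87, edgeR adjusted p = 0.00191). SER3, the first enzyme of serine synthesis, was at 124, 171 and 158 CPM at 90 min, against 79.6, 79.3 and 101 CPM at 50 min (0.80, edgeR adjusted p = 0.000292). SRG1 is a noncoding transcript that runs across the SER3 promoter on the same strand, so reads where the pair overlap cannot be assigned to either. These were the 2 calls among 56 amino acid synthesis genes (3.57%, beside 0.647% of all features called higher, median 0.18). DUR3, a urea transporter, FRE1, a ferric reductase, and AHP1, a thiol peroxidase, rose by 0.72, 0.59 and 0.63 on the log2 scale. SER3 kept the call without Abf1 50 min replicate 2, and LYS20 (0.78, edgeR adjusted p = 0.021), DUR3 (0.73, 0.018), FRE1 (0.56, 0.021) and AHP1 (0.41, 0.021) lost it. The 18 glycolysis genes had a median of 0.39 with 0 calls in edgeR, 10 higher (55.6%) and 1 lower (5.56%) at an unadjusted p under 0.05 beside 11.1% and 9.51% of all features, and 2 higher in DESeq2. Without Abf1 50 min replicate 2 the median was 0.19, with 3 higher (16.7%, beside 7.46% of all features) at that p.

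The falls held 4 genes of lipid supply. ITR1, the main importer of inositol, was at 377, 361 and 361 CPM at 90 min, against 858, 692 and 796 CPM at 50 min (log2 fold change -1.09, SE 0.10, edgeR adjusted p = 6.14e-09). PSD1, which makes phosphatidylethanolamine in mitochondria, was at 118, 145 and 132 CPM at 90 min, against 238, 255 and 254 CPM at 50 min (-0.92, SE 0.10, edgeR adjusted p = 3.46e-07). The fatty acid activating enzymes FAA1 and FAA4 fell by 1.00 and 0.75 on the log2 scale (edgeR adjusted p = 0.000277 and 1.85e-06). FAA4 was at 205, 209 and 215 CPM at 90 min, against 338, 329 and 391 CPM at 50 min. The groups were apart in all 4 genes. They were the 4 calls among 27 lipid and inositol genes (14.8%, beside 0.35% of all features called lower). The median was -0.22 and 22 were below 0, beside 2820 of all 5722 features. The list was drawn up after the values were seen, so its counts carry no weight of their own. INO1, the inositol-making enzyme, lay between 14.5 and 27.1 CPM in the 6 libraries with replicate 2 highest in both groups (0.08, edgeR adjusted p = 0.95).

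ITR1 and PSD1 each hold CATGTG, the inositol element read by Ino2 and Ino4, on both strands of the 300 bases, and the windows with it in capitals (CACATG where it reads on the other strand) are given because these 2 genes had the smallest p of the falls. The element occurs before 13 of the 27 genes of the list (48.1%), 3 of the 20 genes called lower (15%) and 390 of all 5603 (6.96%). FAA1 and FAA4 have none there.
ITR1, chrIV:1445720-1445773: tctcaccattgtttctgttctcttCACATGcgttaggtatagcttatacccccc
ITR1, chrIV:1445659-1445712: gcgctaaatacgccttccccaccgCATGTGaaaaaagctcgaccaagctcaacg
PSD1, chrXIV:317882-317935: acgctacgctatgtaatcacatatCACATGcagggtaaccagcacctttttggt
PSD1, chrXIV:317806-317859: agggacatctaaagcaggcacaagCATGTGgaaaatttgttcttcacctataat

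Both genes lie on the minus strand, and the windows are written in their direction.

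Genes that are switched on as daughter cells separate, at the end of mitosis and in early G1, had lower values. CTS1, the chitinase that splits the septum, was at 583, 423 and 562 CPM at 90 min, against 913, 849 and 1006 CPM at 50 min (log2 fold change -0.82, SE 0.15, edgeR adjusted p = 0.00126). SUN4, a glucanase of the septum and of the same family as NCA3, was at 155, 104 and 164 CPM at 90 min, against 260, 212 and 284 CPM at 50 min (-0.84, SE 0.14, edgeR adjusted p = 0.000279). AMN1, which holds back exit from mitosis in daughters, was at 228, 169 and 204 CPM at 90 min, against 316, 303 and 347 CPM at 50 min (-0.68, SE 0.11, edgeR adjusted p = 0.000279). Of 24 genes of this phase 3 were called lower and 0 higher, beside 0.35% and 0.647% of all features. A log2 fold change below 0 was seen in 22, beside 2820 of all 5722 features, and the median was -0.45. Without Abf1 90 min replicate 2 only SUN4 was called (median -0.28), since CTS1 had an edgeR adjusted p of 0.0122 and AMN1 a log2 fold change of -0.58, and without Abf1 90 min replicate 1 there were 7 calls (median -0.59). With the block DSE1, DSE2, RME1, PRY3 and NIS1 passed too, which made 8, beside 0.909% of all features. PRY3 was at 143, 66.0 and 88.4 CPM at 90 min, against 227, 199 and 208 CPM at 50 min. Fewer cells in a phase of the cycle and less RNA from each cell cannot be told apart in bulk cultures. The 31 G1/S genes had a median of -0.25 with 0 calls in edgeR, 9 lower at an unadjusted p under 0.05 (29.0%, beside 9.51% of all features), 1 lower in DESeq2 and 2 lower with the block (MCD1 and CDC45). The 18 G2/M genes had a median of -0.26 with 0 calls in edgeR and in DESeq2, and 5 were lower in edgeR at an unadjusted p under 0.05 (27.8%).

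Heat shock chaperones were mixed. STI1, which joins Hsp70 to Hsp90, was at 1727, 2451 and 1641 CPM at 90 min, against 3123, 4219 and 3579 CPM at 50 min (log2 fold change -0.91, SE 0.14, edgeR adjusted p = 0.000175). SSA4, a heat-induced Hsp70, was at 4171, 6590 and 4125 CPM at 90 min, against 7573, 8222 and 7415 CPM at 50 min (-0.64, SE 0.15, edgeR adjusted p = 0.00794), and lost the call without Abf1 50 min replicate 2 (edgeR adjusted p = 0.044). Replicate 2 was the highest in both groups for both genes. Of 25 chaperones these 2 were called lower and 0 higher, beside 0.35% and 0.647% of all features, with a median of -0.22. Without Abf1 90 min replicate 2 there were 7 lower (median -0.31) and without Abf1 50 min replicate 1 there were 4. There was 1 in each of the other 4 fits that left out a library, and the median was -0.12 without Abf1 90 min replicate 1. With the block HSP78 and SIS1 were lower too and HSP12, a membrane protector, was higher, at 349, 479 and 254 CPM at 90 min, against 224, 228 and 138 CPM at 50 min.

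**Figure D4:**
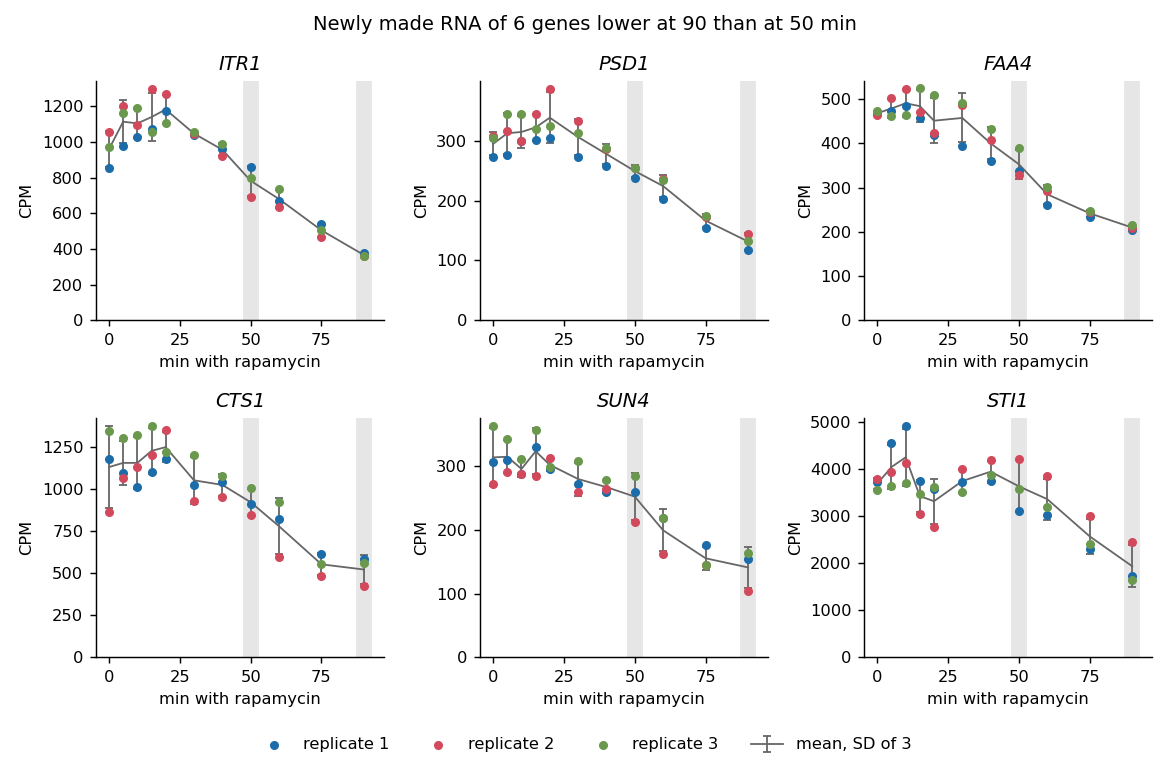
Newly made RNA in CPM of ITR1, PSD1, FAA4, CTS1, SUN4 and STI1 by min with rapamycin (0 is solvent only), drawn as points per library coloured by replicate number with means and SD of 3; 50 and 90 min are in grey. In each gene every 90 min library lies below every 50 min library.

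The other large falls had no list in common. INA1, a membrane protein gene, had the largest fall of the called genes, at 29.5, 34.9 and 47.8 CPM at 90 min, against 89.0, 106 and 113 CPM at 50 min (log2 fold change -1.46, SE 0.21, edgeR adjusted p = 8.09e-05). RPI1, at 40.8, 40.2 and 42.9 CPM at 90 min, against 78.9, 78.2 and 86.4 CPM at 50 min, was tight in both groups (-0.98, edgeR adjusted p = 6.24e-06). HMS2, a gene related to heat shock factors that overlaps YJR146W, fell by 0.92 on the log2 scale, and YOR342C by 0.86. MTW1 of the kinetochore (-0.83), VTC5 of vacuolar polyphosphate synthesis (-0.77), BUD9 of bud site selection (-0.73), YOL107W (-0.70), LAA2 (-0.64), SRL3 (-0.62) and BOI1 of bud growth (-0.59) were the other genes called lower. The rises without a list were SRO77 of exocytosis (0.84), UBC5, a ubiquitin-conjugating enzyme with a close paralog (0.82), YBL028C (0.70), the pseudogene AAD6 (0.60) and RIB5, riboflavin synthase (0.60). RIB5 fell just short of the fold minimum with the replicate block (log2 fold change 0.58, edgeR adjusted p = 0.0006). The calls of UBC5, YBL028C, RIB5, MTW1, VTC5, YOL107W, LAA2, SRL3 and BOI1 were lost without Abf1 50 min replicate 2 (edgeR adjusted p between 0.0108 and 0.0636), and those of SRO77, AAD6, BUD9 and YOR342C were kept. These last 4 lost it in 2 or more of the other 5 fits that left out a library.

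Where the called genes stood against 0 min is given for each time on its own, since both comparisons share the 0 min libraries and each shares a group with the comparison that chose the genes. Among the 37 higher genes the median was 0.78 on the log2 scale (quartiles 0.30 and 1.17) at 90 against 0 min and of -0.44 (quartiles -0.75 and 0.16) at 50 against 0 min. The 20 lower genes had -1.10 (quartiles -1.25 and -0.70) at 90 against 0 min and -0.27 (quartiles -0.40 and 0.11) at 50 against 0 min. Single genes differed in form. NCA3 was above 0 min at both times (2.88 at 90 min and 1.05 at 50 min), MGM1 below it at both (-1.45 and -2.68), and ITR1 was at -1.39 at 90 min and -0.29 at 50 min.

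The libraries of 75 and 40 min share none with the 6 compared. At 75 against 40 min all 37 higher genes had a log2 fold change above 0, as 51.0% of all features did, and all 20 lower genes were below 0, as 49.0% did. The medians were 0.63 and -0.65. Of the 37, 4 were called higher there (0.14% of all features), and of the 20, 9 were called lower (0.175%), and with the block 8 (0.437%) and 12 (0.419%). NCA3 (1.39), MGM1 (0.93), SER3 (0.95) and DUR3 (1.02) were called higher at 75 against 40 min in edgeR. The ribosomal proteins had a median of 0.38 there, the small nuclear and nucleolar RNAs 0.53, the proteasome 0.33 with all 33 above 0, the phase of daughter separation -0.52 and the early fallen genes 0.02. Among the 75 and 40 min libraries, Abf1 40 min replicate 2 was the lowest for ribosomal proteins (0.584% of counts). It was also the lowest for small nuclear and nucleolar RNAs (0.106%), so a low replicate 2 enters both medians here as well.

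In WT, rapamycin for 90 min gave 0 calls against solvent in edgeR (0.0% in either direction), with 224 features higher and 280 lower at an unadjusted p under 0.05 and 0 calls in DESeq2. Of the called genes, 26 of the 37 were above 0 in WT (70.3%, beside 49.2% of all features) and 12 of the 20 below 0 (60.0%, beside 50.8%). Their medians in WT were 0.10 and -0.07. SNR30 was at -0.82, NCA3 at 0.03, ITR1 at 0.13 and MGM1 at -0.09 there, each with no call in edgeR. The difference between the strains was not tested, as WT was measured at 0 and 90 min and not at 50 min.

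**Figure D5:**
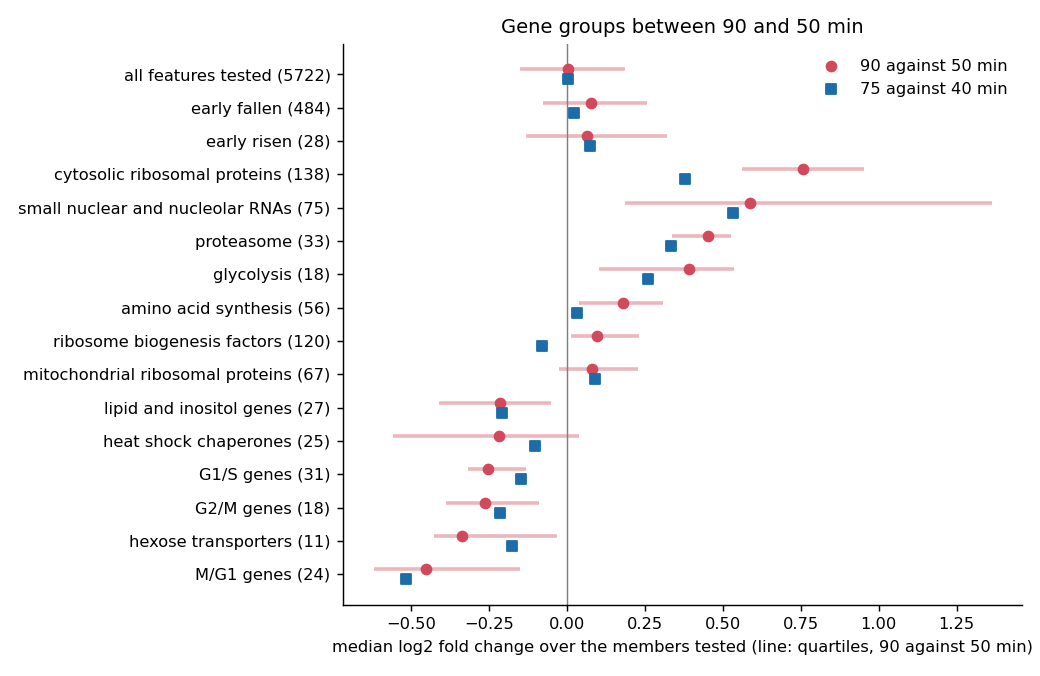
Median log2 fold change of 16 gene groups (members tested in brackets) at 90 against 50 min (circles, line from the lower to the upper quartile) and at 75 against 40 min (squares). Ribosomal proteins, small RNAs and proteasome lie above 0, daughter separation (M/G1) genes lie farthest below, and early fallen genes lie near 0.

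Gene length moved with the fold change. The median log2 fold change at 90 against 50 min was 0.37 for the 118 features of up to 200 bases, 0.17 for those of 300 to 500, -0.01 for those of 1000 to 1500 and -0.07 for those of 2000 to 3000. It was -0.02 for the 519 features over 3000 bases. In WT the features of up to 200, of 2000 to 3000 and of over 3000 bases had 0.21, -0.09 and -0.15. At 75 against 40 min the same features had 0.32, -0.04 and -0.03. Ribosomal protein genes of at most 500 bases had a median of 0.76, against 0.20 for the 626 other protein-coding features of that size, and those over 500 bases had 0.77. Length here is the genomic span of a gene, introns included. The split at 500 bases thus does not separate short from long ribosomal protein mRNAs. The part of length in the rises of small RNAs was not tested.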

How the data were processed

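Thiol-labelled RNA of the 39 libraries was deposited as whole-number counts per gene. Per the labels and the study's methods, the authors aligned reads to sacCer3 with HISAT2 2.0.5, merged reads with the same molecular identifier, counted them in genes with featureCounts (Subread 1.6.5) and summed the counts of the runs of each biological replicate. Whether counting used strand is not given in the sources used here. A deposited table of the authors' own fold changes and p-values was not used.

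Features were kept with filterByExpr at a minimum count of 10 (5722 of 6420, with 99.99% of counts). edgeR 4.0.16 (R 4.3.3) fitted all 39 libraries with a coefficient per group and TMM factors, tested by quasi-likelihood F-test with Benjamini-Hochberg adjustment. A call needed an adjusted p under 0.01 and a fold change over 1.5. The pipeline was tested on simulated data. CPM values use TMM-scaled totals. Names and sequences came from RefSeq R64.

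Replicate numbers paired the samples: deviations from the group means over genes had correlations of 0.64, 0.58 and 0.55 between same-numbered samples of 90 and 50 min. All other pairs were below 0, but centring on group means pushes them there, so their sign adds nothing. Named genes were label checks, genes whose promoters the study names with SSE2 and VIR1, called genes with the 12 largest rises and 8 largest falls, early fallen genes with the 6 largest rises and 4 largest further falls among called genes, each with non-overlapping replicates and 50 or more counts on average where higher, and up to 4 called members with the smallest p per list. Other names were chosen after their values were seen. The members and lists were chosen with earlier results of these data known. Alternatives were the replicate block, fits of 6 or 33 libraries, other scaling, DESeq2 1.42.0, no filter, an adjusted p under 0.05, the early lists from 10 and 15 min, and each library left out.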

Additional observations from a re-analysis of the deposited data

How the results depend on the processing

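The number of calls depended on the fit, and no result named in the text changed direction with a call. With the replicate block in all 39 libraries there were 98 genes called higher and 52 lower, and with the block in the 6 libraries alone 23 and 31. Without the block the 6 libraries alone gave 0 calls in either direction. The 33 tagged libraries gave 23 higher, DESeq2 95 higher and 34 lower, and an adjusted p under 0.05 gave 135 and 45. Other scaling and no filter kept both counts within 1.5 times. Leaving out 1 library, with or without the block, gave 11 to 217 higher and 14 to 89 lower.

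Early fallen genes called higher numbered 2 with the block in the 6 libraries, 0 in those libraries without it, 10 in DESeq2, 12 at an adjusted p under 0.05, 2 for the list from 10 and 15 min, and 5 to 16 when a library was left out. Those called lower numbered 1 with the block in the 6 libraries, 1 at an adjusted p under 0.05 and 0 to 2 when a library was left out. Their median ranged over 0.0081 to 0.092 when a library was left out. For early risen genes the median was 0.17 for the list from 10 and 15 min, and 0 to 2 were called higher when a library was left out. The counts of ribosomal proteins called ranged over 0 to 85 and of small nuclear and nucleolar RNAs over 0 to 15 without 1 library and without the block. Genes of daughter separation called lower ranged over 1 to 7, as did the chaperones. The median share of the early loss regained ranged over 1.15% to 3.00%. The median of all features moved by under 0.1 in every scaling.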
